A study of Homo sapiens with 12 samples.

Results

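The comparison described here is that of HepG2 cells with TST silenced (shTST) against wild-type HepG2 cells (WT), at the level of single genes and of groups of genes. Its members are the 4 shTST and the 4 WT libraries among the 12 libraries of the series, and the 14584 of 57500 genes that passed edgeR's filter on low counts in these 8 libraries. HepG2 is a line of human hepatocellular carcinoma cells, and RNA was sequenced after 24 h in normal medium with 400 µM glycine, which both groups received. The methods describe a purchased TST shRNA plasmid, lentivirus and blasticidin selection of transduced cells for shTST, and name no control hairpin or selection for the WT cells, so that the hairpin, the transduction and the selection cannot be told apart. No clone is named in the sources, and the remaining 4 libraries (overTST, with a codon-optimized TST transgene) were used only for the direct comparison at the end.

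TST, also called rhodanese, is a mitochondrial sulfurtransferase that moves a sulfur atom from thiosulfate to cyanide and so forms the less toxic thiocyanate. In liver cells it works beside the enzymes that oxidize hydrogen sulfide. Cyanide binds the heme of cytochrome c oxidase, the last enzyme of the respiratory chain. The question asked of these libraries was which functions of a hepatocyte line differ in their transcripts when less TST is present.

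Promoters of 3 of the genes that changed, CYP1A1, ASNS and DEPP1, are shown. Each gene is known from 1 of 3 responses whose gene lists are described below. These are the responses to aryl hydrocarbon receptor ligands, to amino acid shortage and to FOXO factors under low insulin signalling. Whether any of these responses was active in these cells was not tested. Each line gives the 250 bases before the RefSeq start of the gene (GRCh38.p14, minus strand for all 3), written 5′ to 3′ on the strand of the gene, with matches to any of 4 motifs in capitals. The motifs searched on both strands were the aryl hydrocarbon receptor core TNGCGTG, the amino acid response element TGATGNAAN, the FOXO core TGTTTAC and the cAMP response element TGACGTCA, and each window shown held at most 1 match.
CYP1A1, chr15:74725529-74725778: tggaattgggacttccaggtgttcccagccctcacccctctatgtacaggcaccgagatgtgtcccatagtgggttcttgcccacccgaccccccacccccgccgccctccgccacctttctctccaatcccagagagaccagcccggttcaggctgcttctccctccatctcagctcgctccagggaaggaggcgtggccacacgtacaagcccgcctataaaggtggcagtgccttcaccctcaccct
ASNS, chr7:97872409-97872658: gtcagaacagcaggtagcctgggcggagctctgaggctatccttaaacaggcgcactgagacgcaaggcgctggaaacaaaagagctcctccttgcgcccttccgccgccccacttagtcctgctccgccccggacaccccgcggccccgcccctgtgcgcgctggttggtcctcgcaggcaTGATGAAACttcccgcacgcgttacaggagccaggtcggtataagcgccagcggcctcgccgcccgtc
DEPP1, chr10:44978810-44979059: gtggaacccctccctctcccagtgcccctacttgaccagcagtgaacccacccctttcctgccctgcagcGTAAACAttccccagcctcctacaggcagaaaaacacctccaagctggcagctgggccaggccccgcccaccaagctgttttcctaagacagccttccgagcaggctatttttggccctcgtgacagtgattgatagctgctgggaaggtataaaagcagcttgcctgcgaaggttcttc
The capitals mark an amino acid response element that begins 68 bases before the start of ASNS. On the opposite strand, they mark a FOXO core that begins 180 bases before the start of DEPP1, whereas the window of CYP1A1 held no match. Sequence outside these windows was not searched, so nothing is said of sites farther from the start of any of these genes. ASNS has 2 RefSeq windows, and the one with a match is shown. Over the 15288 windows of 300 bases that belong to tested genes, 2.04% held the amino acid response element, 2.6% the FOXO core, 7.08% the receptor core and 2.83% the cAMP response element. Only 10614 of the tested genes (72.8%) had a window, so a comparison of changed with other genes was void and is not given.

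The libraries of both groups were of similar depth, with 28866175 to 45120508 counts in WT and 27527854 to 33865386 in shTST. The first principal component of the log2 levels held 29.3% of the variance and separated the WT from the shTST libraries. Mitochondrially encoded genes took 6.91 to 11.98% of counts in WT and 6.84 to 8.65% in shTST. Counts in shTST replicate 2 were spread over 24354 genes, more than in the other 7 libraries (at most 22906). The defining products of hepatocytes were abundant in both groups, with ALB at 5220 to 8500 and APOB at 6670 to 8430 CPM (counts scaled to a common library size, with TMM factors of the 8 libraries unless stated). Of 30 markers of blood, endothelial, stromal, neural and other cells, 9, among them PTPRC, CD3E, HBB and LUM, had at most 3 counts in every library. The 30 markers summed, without TMM factors, to 1890 to 2000 CPM in WT and 1670 to 1800 in shTST, most of it LYZ, and 3 of the 13 that could be tested were lower in shTST.

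TST was measured at 48.1, 48.4, 53.8 and 49.4 CPM in the 4 WT libraries. In shTST it was measured at 33.6, 34.2, 37.2 and 34.1 CPM. Every shTST library therefore lay below every WT library, and the transcript was reduced and not removed, with a level of 0.698 of that in WT (log2 fold change −0.52, standard error 0.055, edgeR adjusted p = 3.2e-06). In bulk RNA, fewer cells with the transcript and less transcript per cell cannot be told apart. TST (ENSG00000128311, chr22:37010859-37020183 on GRCh38, minus strand) overlaps MPST, a related sulfurtransferase gene on the opposite strand, and the strand setting of the counting is not given in the sources used here.

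**Figure D1:**
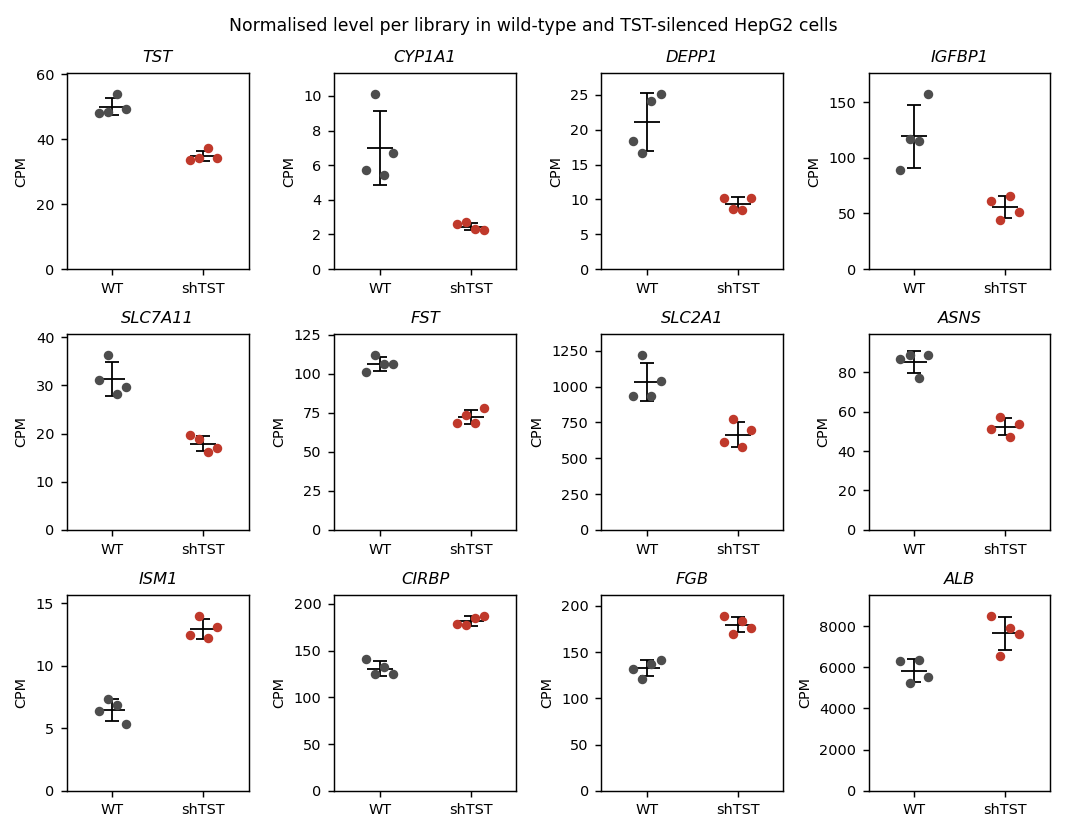
CPM of 12 genes in each of the 4 WT (grey) and 4 shTST libraries (red), on linear axes that start at 0, with a bar at the mean and whiskers of 1 SD. In all 12 panels, every shTST library lies on one side of every WT library, lower for the first 8 genes and higher for ISM1, CIRBP, FGB and ALB. Several of these genes were chosen by rules that ask for no overlap or a small p, so this separation is partly set by the choice. Over all genes tested, the groups did not overlap for 19.2%.

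At an adjusted p of at most 0.05 in edgeR's quasi-likelihood test, 2346 genes (16.1%) were called changed. Of these, 975 were higher (6.69% of genes tested) and 1371 lower (9.4%) in shTST, and the median log2 fold change of all genes was 0.004. These shares are the background for every group of genes below. With upper-quartile scaling 52.7% of the called genes were higher, against 41.6% here. At least a 1.5-fold change was found in 175 genes (1.2%), 92 higher and 83 lower, and the levels of the groups did not overlap for 2793 genes (19.2%). The biological coefficient of variation was 5.85%. Without shTST replicate 1, 1513 genes were called, 644 higher and 869 lower. The count of genes at least 1.5-fold lower was 49 without WT replicate 2, and DESeq2 gave 50 genes higher and 52 lower at this fold.

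**Figure D2:**
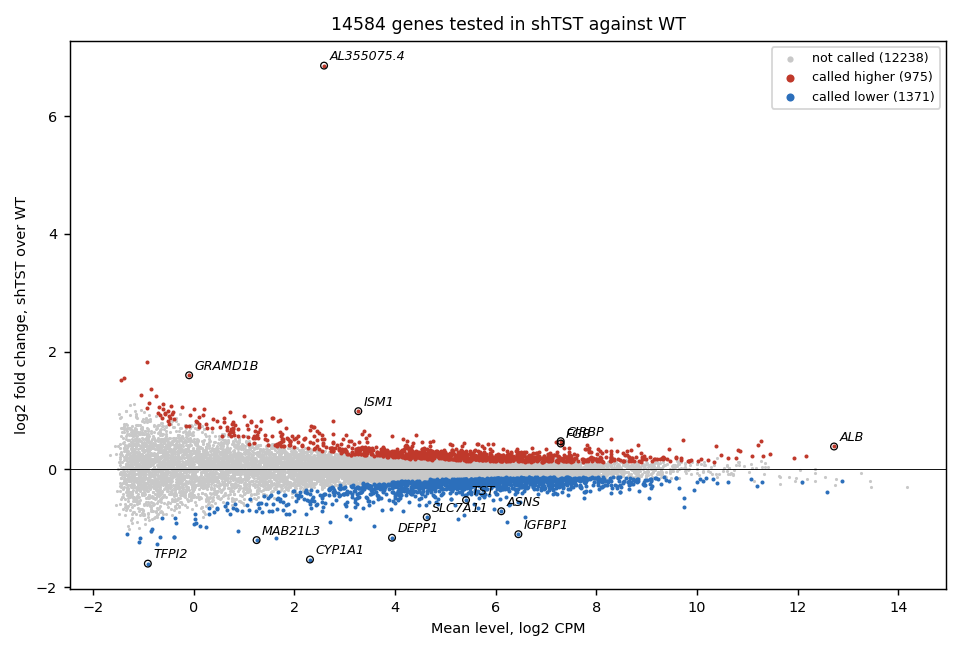
Log2 fold change of shTST over WT against mean level (log2 CPM) for the 14584 genes tested, with called genes in red (975 higher) and blue (1371 lower). Most called genes lie within 1 log2 unit of 0, and AL355075.4 stands apart at 6.86.

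Among genes with a mean level of at least 1 on the log2 CPM scale and no overlap of the groups, the largest decrease was in CYP1A1 (ENSG00000140465, chr15:74719542-74725610), a cytochrome P450 that hydroxylates polycyclic aromatic compounds. It was at 5.7, 10.1, 5.46 and 6.68 CPM in WT and at 2.59, 2.7, 2.3 and 2.23 CPM in shTST. As this ranking required, the groups did not overlap, and WT replicate 2 was the highest library (log2 fold change −1.53, standard error 0.17, edgeR adjusted p = 5.04e-06). DEPP1 (ENSG00000165507, chr10:44970981-44978810), a FOXO target that acts on autophagy, was at 18.4, 16.7, 24.1 and 25.1 CPM in WT and at 10.2, 8.63, 8.51 and 10.2 in shTST. This is a fall of 1.16 on the log2 scale (standard error 0.11, edgeR adjusted p = 7.78e-07), again without overlap. DEPP1 lies wholly within RASSF4, a gene on the opposite strand with 1733 to 2933 counts in these libraries, and reads of the 2 genes may not be separated. IGFBP1, a secreted insulin-like growth factor binding protein that insulin represses, was at 88.5, 117, 115 and 157 CPM in WT and at 60.9, 43.6, 65.8 and 51.6 in shTST. Although the WT libraries were spread widely, none came as low as the highest shTST library (log2 fold change −1.10, standard error 0.12, edgeR adjusted p = 4.45e-06).

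Further large decreases were in MAB21L3 (−1.20), SLC37A2, a sugar phosphate transporter of the endoplasmic reticulum (−0.96), PHLDA2, an imprinted growth regulator (−0.90), and CYP24A1, the enzyme that inactivates vitamin D (−0.84). AKR1B10, an aldo-keto reductase of the liver tumour type, fell by 0.81 and TMC6 by 0.68. The mitochondrial tRNA gene MT-TQ was at 2.6 to 6.25 CPM in WT and at 1.77 to 1.93 in shTST (−1.16), and MT-TI lies on the opposite strand over part of it. TFPI2, a protease inhibitor named after its value was seen, had the lowest log2 fold change of all genes tested (−1.60, edgeR adjusted p = 0.00336) at a low level.

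The increase that exceeded all others was in AL355075.4 (ENSG00000259001, chr14:20343048-20343685, minus strand), annotated as an antisense RNA over the start of PARP2. It had 4, 2, 1 and 7 counts in the WT libraries, 372, 284, 461 and 358 in the shTST libraries, and 4, 1, 2 and 7 in the overTST libraries. Counts were therefore high in all shTST libraries and at most 7 in the other 8. RPPH1, the RNA component of ribonuclease P, lies within the same stretch (chr14:20343075-20343407) and was listed at 0 in all 12 libraries. The origin of these counts was not tested, and they are not treated here as expression of an endogenous gene.

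Apart from that locus, ISM1 (ENSG00000101230, chr20:13221771-13300651), a secreted protein of the isthmin family, rose most among the protein-coding genes whose groups did not overlap and whose mean level was at least 1 on the log2 CPM scale. It was at 6.36, 7.31, 6.85 and 5.34 CPM in WT and at 12.5, 14, 12.2 and 13.1 in shTST. The highest WT library stayed well below the lowest shTST library (log2 fold change 0.99, standard error 0.094, edgeR adjusted p = 7.78e-07). DUSP10, a phosphatase of stress-activated kinases, rose by 0.80 at a low level (1.18 to 2.01 CPM in WT and 2.66 to 2.91 in shTST). Increases with small errors were also found in RHOBTB1 (0.44), DCDC2, a protein of the primary cilium (0.44), and CPE, a carboxypeptidase of secretory granules (0.42). The transcripts annotated as noncoding or as a pseudogene, AL161891.1 (0.88), AC091057.1 (0.88), AHSA2P (0.84), AC145207.5 (0.83) and AC093297.2 (0.82), and the protein-coding genes NPIPA1 (0.82) and OPN1SW (0.75) rose too, all at levels below 11 CPM. NPIPA1 belongs to a family of near-identical copies and shares bases with PKD1P3, so its counts are uncertain.

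**Figure D3:**
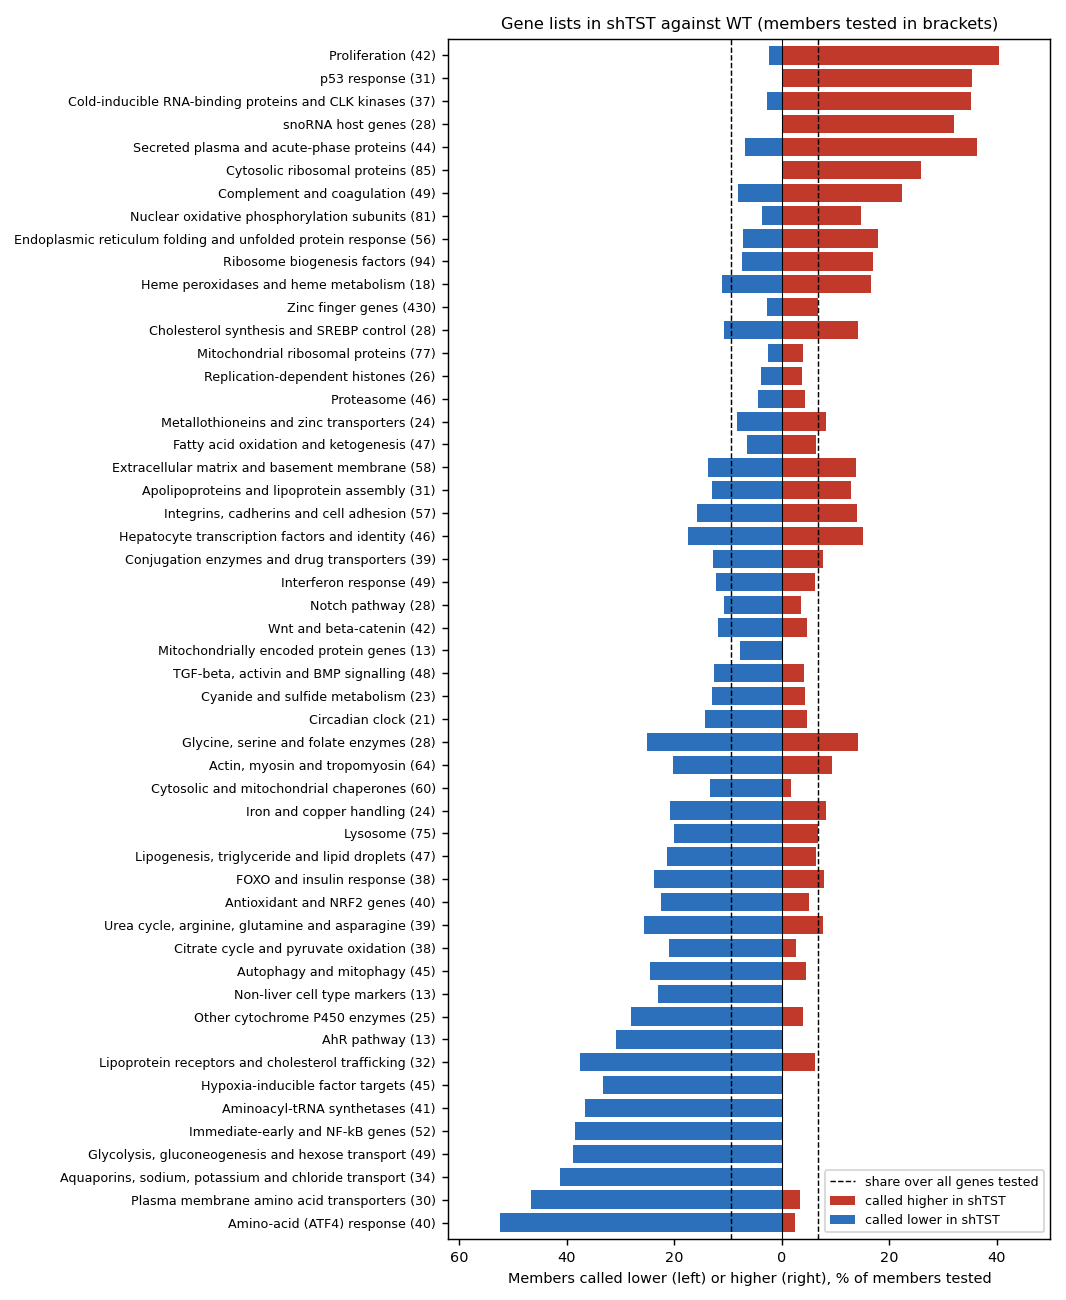
Share of the tested members of 52 gene lists that were called lower (blue, left) or higher (red, right) in shTST, in percent, with the number of tested members in brackets and the shares over all genes tested as dashed lines (9.4% lower, 6.69% higher). Lists of the amino acid response, amino acid uptake, ion transport, glycolysis, and immediate-early and NF-kB genes extend farthest to the left. Farthest to the right are lists of proliferation, p53, plasma proteins, and RNA-binding proteins with CLK kinases.

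Lower transcripts were frequent among genes of glucose uptake and glucose metabolism. Of 49 tested genes of glycolysis, gluconeogenesis and hexose transport, 19 (38.8%) were lower and none was higher, with a median log2 fold change of −0.15. SLC2A1, the glucose transporter GLUT1, was at 936, 1220, 931 and 1040 CPM in WT and at 613, 772, 581 and 694 in shTST. All shTST libraries were below all WT libraries (log2 fold change −0.63, standard error 0.080, edgeR adjusted p = 2.84e-05). Decreases were also found in PC, pyruvate carboxylase (−0.29), PCK2, mitochondrial phosphoenolpyruvate carboxykinase (−0.27), and PYGB, a glycogen phosphorylase (−0.27). GAPDH had a log2 fold change of −0.11 and did not pass (edgeR adjusted p = 0.173). Without WT replicate 4, and likewise without shTST replicate 4, 12 members were lower.

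Hypoxia-inducible factor targets were lower as well in 15 of 45 cases (33.3%), and none was higher, among them SLC2A1, NDRG1 (−0.43) and the histone demethylase KDM4B (−0.24). SLC2A1, HK2, ENO2, PFKFB3 and PFKFB4 are also among the lower genes of the glycolysis list, so the 2 counts are not independent. HIF1A itself was at 134, 142, 121 and 126 CPM in WT and at 114, 124, 113 and 115 in shTST. These groups overlapped, and the call (log2 fold change −0.17, edgeR adjusted p = 0.0276) was lost in 5 of the alternatives.

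Transcripts of amino acid transporters and of enzymes that charge tRNAs with amino acids were lower in many cases. Among 30 plasma membrane amino acid transporters, 14 (46.7%) were lower and 1 was higher, with a median of −0.16. SLC7A11, the cystine/glutamate exchanger, was at 31.1, 36.3, 28.3 and 29.6 CPM in WT and at 19.7, 18.8, 16.2 and 17 in shTST. No library of one group reached the other (log2 fold change −0.81, standard error 0.078, edgeR adjusted p = 7.78e-07). SLC6A14, a broad carrier of neutral and cationic amino acids, fell by 0.71, SLC43A2 by 0.41, the glutamine carrier SLC1A5 by 0.38 and the glycine transporter SLC6A9 by 0.36. ASNS (ENSG00000070669, chr7:97852118-97872542), asparagine synthetase, was at 86.6, 88.6, 77.2 and 88.7 CPM in WT and at 51.1, 57.5, 47.1 and 53.6 in shTST (log2 fold change −0.71, standard error 0.059, edgeR adjusted p = 2.55e-07).

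Of 41 aminoacyl-tRNA synthetases, the enzymes that charge tRNAs, 15 (36.6%) were lower and none was higher. MARS1 (−0.44), VARS1 (−0.34), GARS1 (−0.29) and YARS1 (−0.29) had the smallest p. The list of urea cycle, arginine, glutamine and asparagine genes had 10 of 39 lower and 3 higher. Without shTST replicate 4, it had 5 lower and 1 higher. In the list of glycine, serine and folate enzymes, 7 of 28 (25.0%) were lower and 4 (14.3%) higher, with a median of 0.02. Both shares are above the background, so this list had no common direction. Without WT replicate 4, 5 of its members were lower and 2 higher. The serine synthesis enzyme PHGDH (−0.28) and the mitochondrial folate enzymes SHMT2 (−0.29) and MTHFD2 (−0.33) were among the lower. Many of these genes are known ATF4 targets, and in the ATF4 list 21 of 40 were lower and 1 higher, while ATF4 itself was at 326 to 365 CPM in WT and 302 to 370 in shTST (log2 fold change −0.08, edgeR adjusted p = 0.381).

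Genes of ion and water transport also had lower levels, with 14 of 34 (41.2%) lower, none higher and a median of −0.19. CLIC1, an intracellular chloride channel protein, was at 469, 532, 543 and 522 CPM in WT and at 401, 413, 382 and 404 in shTST. The distance between the groups exceeded the spread in each (log2 fold change −0.37, edgeR adjusted p = 3.85e-05). The anion exchanger SLC4A2 fell by 0.39, the potassium-chloride cotransporters SLC12A7 and SLC12A4 by 0.38 and 0.33. AQP3, a channel for water and glycerol, was low in both groups, at 3.44 to 5.25 CPM in WT and 2.39 to 3.41 in shTST (−0.59). CLIC1 and SLC12A4 share bases with neighbouring genes on their own strand.

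Lipid genes were divided into lists by function. In the list of lipoprotein receptors and cholesterol trafficking, 12 of 32 (37.5%) were lower and 2 higher. LRP10 was at 85.4, 99.8, 91 and 91.8 CPM in WT and at 58, 64.5, 58.6 and 61.2 in shTST. It had one of the smallest p-values of all genes (log2 fold change −0.60, standard error 0.052, edgeR adjusted p = 2.7e-07). NPC1, which moves cholesterol out of lysosomes, fell by 0.50, and SOAT2, which esterifies it, by 0.43. GRAMD1B, which carries cholesterol from the plasma membrane to the endoplasmic reticulum, went the other way, from 0.313, 0.492, 0.484 and 0.5 CPM in WT to 1.46, 1.5, 1.27 and 1.25 in shTST (log2 fold change 1.60, standard error 0.24, edgeR adjusted p = 0.000128).

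Cholesterol synthesis showed no common direction, with 4 of 28 genes higher and 3 lower. HMGCS1 (0.37) and MSMO1 (0.35), enzymes of the pathway, were higher, whereas SCAP (−0.32) and MBTPS2 (−0.30), which activate the SREBP factors, were lower. Among 47 genes of lipogenesis and lipid droplets, 10 were lower and 3 higher (6 lower without shTST replicate 1), with decreases in the acyl-CoA synthetase ACSL3 (−0.31), the phosphatidate phosphatase LPIN2 (−0.35), GPAT3 (−0.48) and the droplet coat protein PLIN3 (−0.23). Fatty acid oxidation had 3 of 47 genes higher and 3 lower, shares below the background in the lower direction and near it in the higher. CPT1A, which admits fatty acids to mitochondria, did not pass (−0.14, edgeR adjusted p = 0.126).

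Immediate-early and NF-kB genes were lower in 20 of 52 cases (38.5%), and none was called higher, with a median of −0.16. NFKB2, the p100 precursor, was at 32, 37.8, 34.4 and 35 CPM in WT and at 25.2, 26.8, 25.5 and 27.5 in shTST. RELB, its partner, was at 8.52, 9.5, 8.37 and 9.12 CPM in WT and at 6.78, 6.55, 6.79 and 6.62 in shTST. In neither gene did the groups overlap (log2 fold change −0.41 for both). The adhesion molecule ICAM1, a classical NF-kB target, fell by 0.31 and the autophagy receptor SQSTM1 by 0.39. FOS was at 1.56 to 1.97 CPM in WT and 2.11 to 2.94 in shTST and did not pass (edgeR adjusted p = 0.0511), but it was called higher in 5 of the alternatives. Without shTST replicate 1, 13 members were lower. Without WT replicate 2, 12 were lower and 2 higher.

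Of 13 tested genes of the aryl hydrocarbon receptor list, 4 were lower and none was called higher. Besides CYP1A1 these were NEDD9, a scaffold protein (−0.36), NQO1, a quinone reductase (−0.19), and PARP10, whose groups overlapped (−0.20). PARP10 lost its call in 10 of the alternatives. Of 25 further cytochrome P450 genes and partners, 7 were lower and 1, CYB5A, higher (0.20), and without shTST replicate 1, 4 were lower and 1 higher. The bile acid enzyme CYP7A1 was at 0.291 to 0.75 CPM in WT and 0.71 to 1.03 in shTST and did not pass (edgeR adjusted p = 0.06). CYP7A1 was called higher in 2 of the alternatives. Conjugation enzymes and drug transporters had 5 of 39 lower and 3 higher, and the 20.5% called were near the 16.1% of all genes. The efflux pumps ABCB1 (−0.39), ABCC2 (−0.31) and ABCC1 (−0.28) were lower, and the glutathione transferase GSTA1 was higher (0.33).

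Among 40 antioxidant and NRF2 genes, 9 were lower and 2 higher. SLC7A11, ABCC2 and the glutaredoxin GLRX (−0.28) were among those lower. TXNIP, which binds thioredoxin, rose by 0.33, from 19.7 to 23.8 CPM in WT to 25 to 28.3 in shTST. NFE2L2, the gene of NRF2 itself, had a log2 fold change of −0.02 (edgeR adjusted p = 0.82). Metallothioneins and zinc transporters had 2 of 24 higher and 2 lower, with MT1X higher (0.43) and MT2A lower (−0.26). The share called in that list, 16.7%, was close to the 16.1% of all genes. Iron and copper genes had 5 of 24 lower and 2 higher, with the transferrin receptor TFRC (−0.23) and the metal carrier SLC39A14 (−0.26) lower and transferrin itself, TF, higher (0.41). Only 3 iron and copper genes were lower without WT replicate 4 or shTST replicate 2 or 4. In the heme list 3 of 18 were higher, among them HMOX1, heme oxygenase (0.25), and 2 lower.

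In the cyanide and sulfide list itself, which includes TST, 3 of 23 tested genes were lower and 1 higher. TST is 1 of the 3 lower genes. The share called, 17.4% with the silenced gene counted, is close to the 16.1% of all genes. GOT1, an aspartate aminotransferase that also acts on cysteine, was at 161, 179, 163 and 177 CPM in WT and at 131, 127, 123 and 130 in shTST. The lowest WT library exceeded the highest shTST library (log2 fold change −0.41, standard error 0.045, edgeR adjusted p = 5.01e-06). SQOR, which oxidizes hydrogen sulfide in mitochondria, was at 13.7, 14.7, 13.7 and 15.6 CPM in WT and at 12.2, 12.4, 9.86 and 11.6 in shTST (−0.33, edgeR adjusted p = 0.00796). MAT2A, which makes S-adenosylmethionine, rose by 0.22 with overlapping groups, and its call was lost in 1 alternative.

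Insulin and FOXO response genes were lower in 9 of 38 cases and higher in 3. After DEPP1 and IGFBP1, the pseudokinase TRIB3 fell by 0.33 and the ectoenzyme ENPP1 by 0.31. Autophagy genes had 11 of 45 lower and 2 higher. The lipid scramblase ATG9A was at 139, 154, 146 and 153 CPM in WT and at 113, 119, 117 and 116 in shTST, and the lipid carrier ATG2A at 47.9, 53.6, 47.5 and 52.5 against 37.8, 38.3, 41.1 and 39.5. For both, the groups were apart (log2 fold changes −0.35 and −0.36), although ATG9A shares bases with ABCB6 on its strand. Lysosomal genes had 15 of 75 lower and 5 higher, with the sorting receptor IGF2R (−0.28) and the proton pump subunit ATP6V0A1 (−0.32) lower, the protease CTSV higher (0.61) and LAMP1 not passing (−0.01, edgeR adjusted p = 0.899). Without shTST replicate 1, 7 lysosomal genes were lower and 4 higher, and without shTST replicate 4, 9 were lower.

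Among regulators of TGF-beta, activin and BMP signalling, the counts were near the background, with 6 of 48 lower and 2 higher (16.7% called). The members given next were chosen for their small p, so they do not describe the list. FST, follistatin, which binds activin, was at 101, 112, 106 and 106 CPM in WT and at 68.7, 73.7, 68.3 and 78 in shTST. The gap between the groups was wider than the range of either (log2 fold change −0.56, standard error 0.050, edgeR adjusted p = 4.35e-07). The co-receptor TGFBR3 fell by 0.58. With no filter on low counts 10 members were lower and 3 higher, and with the replicate number as a block 9 were lower and 5 higher. In the Wnt list, 5 of 42 were lower and 2 higher, and the 16.7% called were near the 16.1% of all genes. The co-receptor LRP5 was lower (−0.31) and the secreted inhibitor DKK1 higher (0.34). The feedback target AXIN2 did not pass (0.09, edgeR adjusted p = 0.401) but was called higher in 1 of the alternatives. In the Notch list, 3 of 28 were lower and 1 higher, and the 14.3% called were just under the share of all genes. NRARP was at 3.07 to 3.6 CPM in WT and 4.33 to 5.7 in shTST (0.57). HEY1 was lower (−0.69) and HES1 did not pass (edgeR adjusted p = 0.983).

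Of 64 genes of actin, myosin and tropomyosin, 13 were lower and 6 higher, with the actin crosslinker FLNA (−0.35), the focal adhesion protein ZYX (−0.36) and MYO18A (−0.32) lower and the bundling protein FSCN1 higher (0.32). ACTB, the cytoplasmic actin, had a log2 fold change of 0.00 (edgeR adjusted p = 0.991). The higher members were 2 without WT replicate 4 and 3 without shTST replicate 2 or 4. CDH1, E-cadherin, was at 17.4, 14.9, 16.3 and 14.6 CPM in WT and at 22.2, 22.5, 21.7 and 21.8 in shTST. All shTST libraries were higher than all WT libraries (log2 fold change 0.48, edgeR adjusted p = 6.87e-05). The integrin ITGA2 was at 44.1, 52.3, 39.6 and 39 CPM in WT and at 29.5, 32.5, 24.4 and 28.5 in shTST, a fall of 0.61. In the extracellular matrix list, 8 of 58 were higher and 8 lower, with thrombospondin THBS1 (0.36) and COL16A1 (0.47) higher and the heparan sulfate proteoglycan HSPG2 (−0.40) and the metalloproteinase inhibitor TIMP1 (−0.47) lower. Without WT replicate 4, 3 of these genes were higher and 7 lower, and with any one of WT replicate 1 or shTST replicate 3 or 4 left out 4 or 5 were higher. The lower ones were 5 without WT replicate 2 and 4 without shTST replicate 1.

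**Figure D4:**
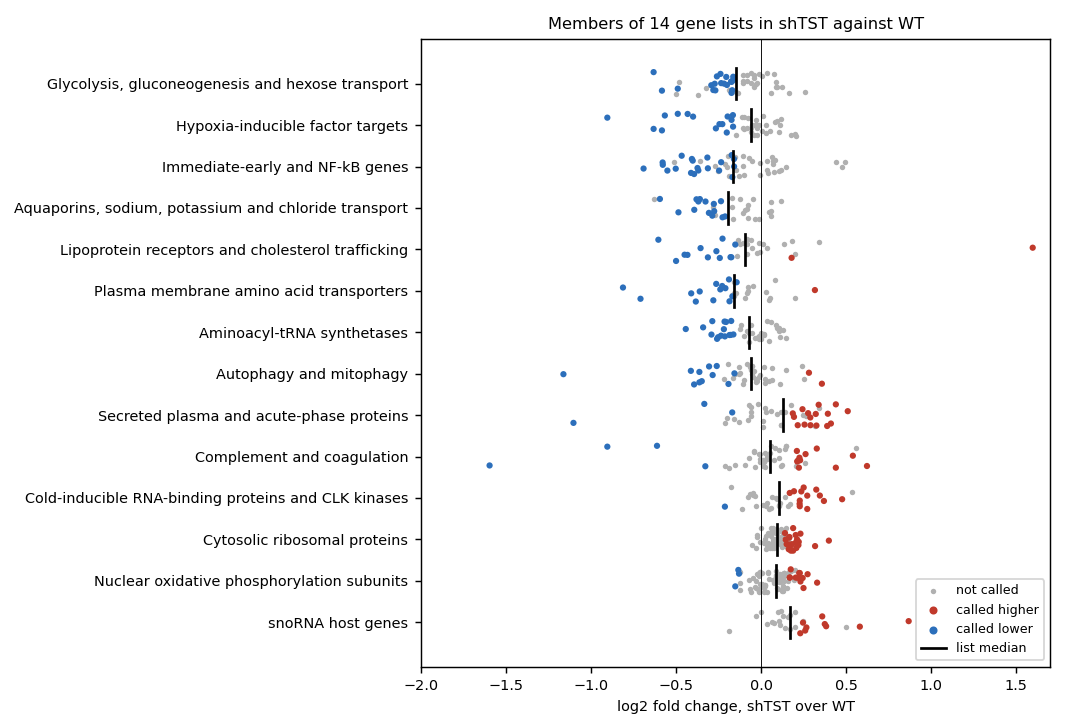
Log2 fold change of shTST over WT for each tested member of 14 lists, with called members in red (higher) or blue (lower), others in grey and the list median as a bar. The medians of glycolysis (−0.15), immediate-early and NF-kB genes (−0.16) and ion transport (−0.19) lie left of 0. Those of plasma proteins (0.13), cold-inducible RNA-binding proteins with CLK kinases (0.10) and snoRNA hosts (0.17) lie right of 0.

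Transcripts of secreted liver proteins were higher in many cases. Of 44 plasma and acute-phase proteins, 16 (36.4%) were higher and 3 lower, and in the list of complement and coagulation 11 of 49 were higher and 4 lower. FGB, the beta chain of fibrinogen, was at 132, 121, 137 and 141 CPM in WT and at 189, 170, 184 and 176 in shTST. Every shTST library exceeded every WT library (log2 fold change 0.44, standard error 0.049, edgeR adjusted p = 5.97e-06). ALB, albumin, was at 6290, 5220, 6350 and 5510 CPM in WT and at 8500, 6550, 7910 and 7630 in shTST. The lowest shTST library was only slightly above the highest WT library (log2 fold change 0.39, standard error 0.075, edgeR adjusted p = 0.0014).

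Further increases were in FGL1, a hepatokine (0.34), KNG1, kininogen (0.62), TF, transferrin, whose groups overlapped (0.41), and HP, haptoglobin (0.24). The 3 lower plasma proteins were IGFBP1, the fetuin AHSG and the thyroxine carrier TTR, which was at 92.3, 97.1, 101 and 97.4 CPM in WT and at 82.7, 73.4, 75.9 and 75.5 in shTST (−0.33, edgeR adjusted p = 7.66e-05). In the complement list the lectin pathway protease MASP1 (−0.61) was lower and prothrombin F2 did not pass (0.03, edgeR adjusted p = 0.694). Apolipoprotein genes split, with 4 of 31 higher and 4 lower. APOB fell by 0.19, a call that was lost in 7 of the alternatives. The number of apolipoprotein genes called also rested on single libraries. It fell from 8 to 3 without shTST replicate 1 and to 5 without WT replicate 4. Leaving out replicate 1 of WT, 3 of shTST or 4 of shTST gave 4.

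The oncofetal proteins AFP and GPC3 were among the higher genes. AFP, alpha-fetoprotein, was at 2180, 1820, 2260 and 1940 CPM in WT and at 3170, 2370, 3050 and 2880 in shTST (log2 fold change 0.49, edgeR adjusted p = 0.000215). GPC3, a cell surface proteoglycan, rose by 0.50, and for both the groups did not overlap. The hepatocyte transcription factors were divided. CEBPB fell by 0.31 and FOXA2 by 0.26, while HNF4A was at 398, 402, 405 and 390 CPM in WT and at 405, 413, 416 and 407 in shTST and did not pass (0.04, edgeR adjusted p = 0.534). Over the whole list of 46, 7 were higher and 8 lower.

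In the list of RNA-binding proteins of the cold-inducible and splicing classes with CLK kinases, 13 of 37 members (35.1%) were higher and 1 was lower. CIRBP (ENSG00000099622, chr19:1259384-1274880), the cold-inducible RNA-binding protein, was at 141, 125, 132 and 125 CPM in WT and at 178, 177, 185 and 187 in shTST. The spread within each group was small beside the difference (log2 fold change 0.48, standard error 0.046, edgeR adjusted p = 7.78e-07). HNRNPDL rose by 0.34, HNRNPH1 by 0.32 and the splicing factor SRSF2 by 0.25. In the list of host transcripts of small nucleolar RNAs, 9 of 28 members were higher and none was lower. SNHG16 was at 158, 135, 150 and 129 CPM in WT and at 193, 172, 189 and 179 in shTST (0.36). SNHG1 rose by 0.37 and SNHG5 by 0.25. NEAT1, the scaffold of paraspeckles and not itself such a host, is counted among the 9 and rose by 0.58 with overlapping groups. Without shTST replicate 2, 14 members of this list were higher.

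Cytosolic ribosomal protein genes shifted together by a small amount. Of 85 tested, 22 (25.9%) were higher and none lower, with a median of 0.10. RPL36A was at 80, 65.2, 79.2 and 77.3 CPM in WT and at 104, 92.4, 88.7 and 90.2 in shTST. These groups did not overlap (log2 fold change 0.32, edgeR adjusted p = 0.00133). RPL22L1 rose by 0.40, RPL11 by 0.22 and RPL22 by 0.21, and FAU did not pass (0.06, edgeR adjusted p = 0.497). The number called rested on single libraries. It was 8 without WT replicate 2 or without shTST replicate 1, 12 without WT replicate 1 and 35 without WT replicate 3, and 36 with the replicate number as a block. Ribosome biogenesis factors had 16 of 94 higher, led by NOP56 (0.24) and nucleolin, NCL (0.23), and 7 lower, led by BOP1 (−0.25), NOL6 (−0.23) and DHX37 (−0.22). These numbers became 8 and 6 when shTST replicate 1 was left out and 9 and 5 when WT replicate 4 was.

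Respiratory chain genes in the nucleus had 12 of 81 higher and 3 lower, with a median of 0.09. NDUFB1 of complex I was at 13.4, 11.5, 13.7 and 12.7 CPM in WT and at 15.9, 14.9, 16.9 and 16.5 in shTST (0.33, edgeR adjusted p = 0.00472). COX6C (0.27), ATP5PF (0.22) and UQCRB (0.22) were higher too, while COX4I1 of cytochrome c oxidase did not pass (0.13, edgeR adjusted p = 0.0726). COX4I1 was called higher in 5 of the alternatives. With the replicate number as a block, 23 were higher and 5 lower. Without WT replicate 3, 31 were higher and none lower, and without WT replicate 2, 7 were higher. Without shTST replicate 1, 6 were higher and none lower, and without shTST replicate 4, 9 were higher and none lower.

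Protein genes encoded by mitochondrial DNA had a median of −0.20, but only MT-CO2 of 13 passed. The median was −0.02 without WT replicate 4, the library with the highest mitochondrial share (11.98%), and −0.33 without WT replicate 1 or 3. MT-CO1, another subunit of cytochrome c oxidase, was at 15500, 20800, 16400 and 28000 CPM in WT and at 18500, 16200, 16400 and 15000 in shTST. The groups overlapped, since 2 WT libraries lay within the shTST range and 2 above it (−0.29, edgeR adjusted p = 0.11). MT-CO1 was called lower in 3 of the alternatives. MT-CO2 (−0.39, edgeR adjusted p = 0.0423) overlapped too and lost its call in 6 of the alternatives, and without WT replicate 1, as without WT replicate 3, 5 of the 13 were lower. With no filter on low counts 12 passed, and none did with DESeq2, with limma-voom, or without WT replicate 4 or shTST replicate 2, 3 or 4. Citrate cycle genes had 8 of 38 lower and 1 higher, with OGDH (−0.21) and IDH3A (−0.23) lower and citrate synthase, CS, not passing (−0.05, edgeR adjusted p = 0.506). The number called fell from 9 to 3 without shTST replicate 4, to 4 without WT replicate 4 or shTST replicate 1 and to 5 without shTST replicate 2, and without WT replicate 1, 5 were lower. Mitochondrial ribosomal proteins had 3 of 77 higher and 2 lower, below the background in both directions, and at most 10 were called in any alternative.

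Of 56 genes of folding in the endoplasmic reticulum, 10 were higher and 4 lower. The excess of higher members varied with single libraries, with 4 higher and 4 lower without shTST replicate 1 and 4 higher and 3 lower without WT replicate 4. PDIA4, a disulfide isomerase, was at 398, 378, 414 and 358 CPM in WT and at 530, 432, 573 and 526 in shTST. The groups were apart (log2 fold change 0.41, edgeR adjusted p = 0.00019). The chaperones HSP90B1 (0.34) and CALR (0.33) were higher as well, and HSPA5, also called BiP, had a log2 fold change of 0.16, a call lost in 5 of the alternatives. Among cytosolic and mitochondrial chaperones, 8 of 60 were lower and 1 higher, a called share just under the 16.1% of all genes, with HSPA8 at 875, 944, 825 and 915 CPM in WT and at 767, 785, 671 and 631 in shTST (−0.32, edgeR adjusted p = 0.00125). HSPE1, the mitochondrial co-chaperonin, rose by 0.22. In the endoplasmic reticulum list, 5 were higher and 2 lower without shTST replicate 4, and 6 and 3 without shTST replicate 3. The proteasome had 2 of 46 higher and 2 lower.

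Genes of DNA replication and p53 targets, both known for their place in the cell cycle, were higher together. Of 42 proliferation genes, 17 were higher and 1 lower, with PCNA at 362, 318, 368 and 341 CPM in WT and at 439, 423, 435 and 433 in shTST (0.32) and UHRF1 higher by 0.47. MKI67, the mitotic marker, did not pass (−0.11, edgeR adjusted p = 0.147), but it was called lower in 1 of the alternatives. Of 31 p53 targets, 11 were higher and none lower. BTG2, an antiproliferative gene, was at 12.4, 10.5, 13.3 and 13.7 CPM in WT and at 18.9, 16.9, 19.6 and 17.4 in shTST (log2 fold change 0.56, edgeR adjusted p = 0.000128), and MDM2 rose by 0.37. Neither group of libraries overlapped the other for PCNA, UHRF1, BTG2 or MDM2. Zinc finger genes, a large family of repressors, had 29 of 430 higher and 12 lower, a higher share of 6.74% that is close to the 6.69% of all genes and a lower share of 2.79% that is below their 9.4%. Without shTST replicate 1, 20 were higher and 7 lower.

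Clock genes had 3 of 21 lower and 1 higher. BHLHE40, a repressor of the clock, was at 24.5, 27.8, 24.2 and 30.2 CPM in WT and at 19.2, 15.2, 19.5 and 16.5 in shTST (log2 fold change −0.60, edgeR adjusted p = 6.8e-05), with no overlap. CRY1, another repressor of the clock, fell by 0.41. Interferon response genes had 6 of 49 lower and 3 higher, and the 18.4% called were also near that share. Leaving out WT replicate 4 or shTST replicate 1 reduced the number called from 9 to 4. GBP2, a guanylate-binding protein, was at 7.62 to 8.06 CPM in WT and at 5.63 to 6.01 in shTST (−0.43), and ISG15 did not pass (−0.10, edgeR adjusted p = 0.427).

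The direct comparison of shTST with overTST does not use the WT libraries as a control and shows which of these levels differed between the 2 engineered lines. It was made in 1 fit of all 12 libraries, in which 4907 of 14883 genes (33.0%) passed. With a correction for gene length 4142 passed. Mitochondrially encoded genes took 10.84 to 11.73% of counts in overTST, above the 6.84 to 8.65% in shTST. The overTST libraries also held fewer counts (22911380 to 27414142 against 27527854 to 33865386). Whether the gene differences go with these facts of the libraries was not tested. DEPP1 was lower in shTST than in overTST (log2 fold change −1.19, standard error 0.11, edgeR adjusted p = 7.6e-08), as were PHLDA2 (−1.12), IGFBP1 (−1.05), CYP24A1 (−0.73), SLC37A2 (−0.64) and FST (−0.56). FGB was higher in shTST than in overTST (0.51, standard error 0.052, edgeR adjusted p = 1.53e-07), and so were DCDC2 (0.38), HMGCS1 (0.47), CDH1 (0.55) and AFP (0.41). Other genes did not pass in this comparison. The difference was −0.57 for CYP1A1 (standard error 0.28, edgeR adjusted p = 0.127), −0.16 for SLC7A11 (0.25), −0.06 for CIRBP (0.384), −0.01 for LRP10 (0.864) and 0.05 for MDM2 (0.496), with the edgeR adjusted p in brackets. Of the amino acid genes, ASNS was lower in shTST than in overTST (−0.36) and SLC6A14 higher (0.77). RPL36A (−0.08, edgeR adjusted p = 0.354) and SNHG16 (−0.01, edgeR adjusted p = 0.918) did not pass.

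For lists with no called member in one direction by edgeR, members past an unadjusted p of 0.05 in that direction were counted too. They were 3 higher in the glycolysis list, 3 in the aminoacyl-tRNA synthetase list, 2 among hypoxia-inducible factor targets and 1 among immediate-early and NF-kB genes. None was found for the aryl hydrocarbon receptor, ion transport and mitochondrially encoded lists (higher) or for ribosomal proteins, snoRNA hosts and p53 targets (lower). DESeq2 called 1 aminoacyl-tRNA synthetase higher and no other such member, and limma-voom called none.

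**Figure D5:**
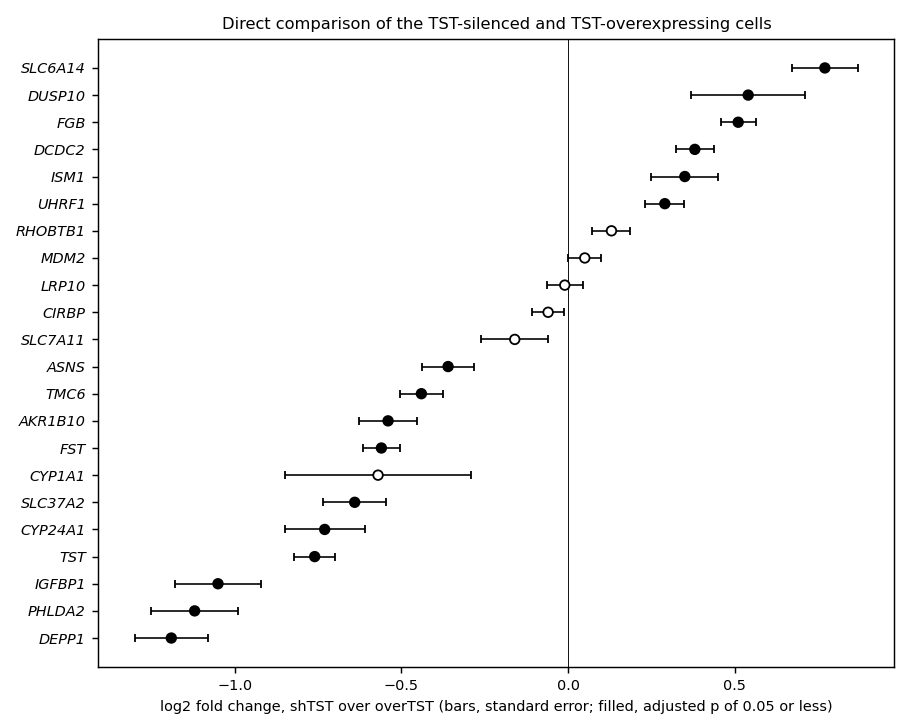
Log2 fold change of shTST over overTST for 22 named genes, with whiskers of 1 standard error and filled points where the edgeR adjusted p was 0.05 or less. DEPP1 (−1.19) and PHLDA2 (−1.12) lie farthest left, SLC6A14 (0.77) farthest right, and LRP10, CIRBP and MDM2 close to 0.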

How the data were processed

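The authors deposited unnormalized, whole-number read counts by Ensembl gene identifier for each of the 12 libraries, beside exon positions and gene lengths. The submitters' processing notes name Trimmomatic 0.36, STAR 2.5.2b and featureCounts of Subread 1.5.2 on GRCh38. The annotation release and the strand setting are not given in the sources used here, so reads of genes that overlap on opposite strands may not be separated. Samples were grouped by their labels, which number 4 replicates per group. The study's methods define replicates in general as experiments on different days, but the labels do not tie these libraries to separate cultures, so the p-values measure the spread between these samples, which may be technical. No pair of replicates was alike within counting noise.

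Counts of the 8 libraries were filtered with edgeR's filterByExpr, scaled by TMM and tested with edgeR 4.0.16 (quasi-likelihood test, Benjamini-Hochberg adjustment over all genes tested, called at 0.05) in R 4.3.3. Levels are CPM, log2 CPM values used a prior count of 2, and each standard error was obtained from the fold change and F statistic of edgeR. The name table covered 56410 of 57500 identifiers, and GENCODE 29 named others. Libraries held 27527854 to 45120508 counts, which limits the precision for genes at low levels. In simulated data with 200 genes changed by a factor of 2, edgeR recovered 87.5% of them, and 7.41% of its calls were unchanged genes (14584 genes, shTST against WT). The simulation held no smaller changes and gives no rate for them, whereas only 175 of the 2346 called genes reached 1.5-fold.

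The genes and the 52 lists were chosen with earlier results of these data known, and the lists came from general knowledge. Members and genes shared by lists are counted in each. Genes were named by this rule: TST, ASNS, CYP1A1, DEPP1, ISM1 and CIRBP; the 10 higher and 10 lower called genes with the largest change at a mean log2 CPM of 1 or more and without overlap; the 10 higher and 10 lower with the smallest p; and of each list the first member and up to 4 called members with the smallest p. This gave 239 genes, 215 of them called, and 6 of them are not reported here. TFPI2, AHSG, HK2, ENO2, PFKFB3 and PFKFB4 fall outside it and were named after their values were seen. The list entries GSTT1, CRIPTO and HSPB11 matched no identifier.

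The alternatives were DESeq2 1.42.0, limma-voom (limma 3.58.1), RLE and upper-quartile scaling, no filter, a filter at 1 CPM in 4 libraries, a joint fit with overTST, the replicate number as a block, removal of mitochondrially encoded genes, a lowess correction for gene length (span 0.3, with and without the block), and leaving out each library in turn. Promoter sequences are those of RefSeq (GRCh38.p14), matched by symbol. Figures were drawn with matplotlib 3.10.9 in Python 3.11.15.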

Additional observations from a re-analysis of the deposited data

Results flagged for a closer look

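In each of the groups of 4 libraries, a library was marked when its distance to the nearest of the others exceeded the 95% critical value of Dixon's test. This marked 20 of 466 groups of the 233 named genes reported here (4.29%), and chance alone marks about 1 in 20 groups. In WT, replicate 2 stood apart from the other 3 for ABCC1 (189 CPM), ICAM1 (85.4), COX4I1 (305), RPL22L1 (14.5) and CEACAM1 (56.5), and replicate 1 for TXNIP (23.8), GRAMD1B (0.313) and BOP1 (191). In shTST, replicate 3 stood apart for TST (37.2 CPM), ABCC2 (79.6), CEBPB (77.8), KNG1 (8.12), SOAT2 (39.5), NDRG1 (27.9) and SLC12A4 (76.9). Replicate 2 of shTST stood apart for CPE (227) and HNRNPH1 (309), replicate 4 for TMC6 (50.5) and GINS2 (90.8), and replicate 1 for HMOX2 (80.8).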

How the results depend on the processing

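Over the 19 alternatives, 4533 values of the 239 named genes were obtained. Of these, 4395 kept their side of the threshold, and 44 of them were values of uncalled genes with a changed sign. Another 106 called values no longer passed, 32 uncalled values passed and none of the called values reversed. Most of these genes were named for calls, large changes or small p in the main fit, so these counts do not measure stability over all genes. The number of called genes lay between 1513 and 2336 with a library left out, with 644 to 1021 higher and 869 to 1375 lower. The lowest numbers (1513, 644 and 869) were those without shTST replicate 1. At a change of 1.5-fold or more, 70 to 121 genes were higher and 49 to 111 lower with a library left out, the 49 without WT replicate 2, and DESeq2 gave 50 higher and 52 lower. The number of genes that differed between shTST and overTST was 3986 to 5265 with a library left out. TST had log2 fold changes of −0.55 to −0.48 with a library left out.

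With the replicate block, 2980 genes passed (1247 higher and 1733 lower), and with the replicate block and the length correction 3125. Deviations of libraries with the same number correlated at 0.043, 0.054, 0.097 and −0.062, so the numbers were not taken as pairs, and replicates 1 to 3 but not 4 correlated best with their own number. The split of called genes into higher and lower moved from 41.6% higher to 52.7% with upper-quartile scaling and was 35.2% with no filter. Of the 52 lists, 26 kept their count of called members within 1.5 times under all 19 alternatives, and of the 988 list counts 80 did not. Medians of 5 lists, cyanide and sulfide metabolism, clock, citrate cycle, actin and histones, were between −0.02 and −0.01 and had the opposite sign with upper-quartile scaling. Depth limits genes near 1 CPM, where few counts per library make the error large.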
